A study of Arachis hypogaea with 3 samples.

Results

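Endo-beta-mannanases were followed in the RNA of peanut (Arachis hypogaea, cultivar Luhua 14) gynophores, the stalks that push the fertilized ovary into the soil. The family was taken as every sequence of the expression table whose best protein match is described as a mannanase or as a mannan endo-1,4-beta enzyme, and 5 of 83579 sequences met this rule. Of the 5, 3 are assembled unigenes (Unigene90, Unigene50234 and Unigene68010) and 2 are public peanut sequences (JK195448 and JK148672). The rule itself reads no expression value, but the family was chosen by its levels across the stages, which were known beforehand, so all levels and ratios of the 5 sequences are given as a description and without a test.

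Poly(A) RNA of gynophores from farm-grown plants was sequenced at 3 stages, with 1 library per stage. The labels describe cutting the tip for protein, and whether the RNA came from the same tips they do not spell out. S1 gynophores were aerial, green or purple and 3 to 5 cm long. S2 gynophores had spent about 3 days in the soil, were white and showed no apparent swelling of the ovary. S3 gynophores carried pods of 2 to 3 mm. Both S2 and S3 gynophores had grown in the dark. The labels name no treatment or genetic change, and the number of plants behind each library was not stated. The 3 libraries together gave 20734295 counted reads, of which S1 supplied 33.3%, S2 32.2% and S3 34.5%. With 1 library per stage the differences have no replicate check, and no p-value is given. The 95% intervals in brackets are exact, by Poisson for a level and by Clopper-Pearson for a ratio, and they cover counting error only. Levels are in RPKM (reads per kilobase of sequence and 1000000 counted reads), which corrects for length. Comparisons between sequences stay approximate, since only reads with 1 place of alignment were counted and the share of bases covered differed between sequences. The stage labels were set against 1 broad marker list here, that of green tissue. Marker lists for seed storage and for histones, both with their highest sum in S2, are given with the processing. The 27 sequences named as chlorophyll-binding, light-harvesting or small Rubisco subunit proteins together had 3131 reads per 1000000 counted reads at S1, 119 at S2 and 274 at S3, so the green-tissue transcripts were highest in the aerial sample. In such bulk RNA, more cells that use a gene cannot be told apart from more RNA per cell.

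Mannans are chains of mannose that occur in plant cell walls, alone or mixed with glucose and with galactose side chains, and in some legume seeds they are a carbohydrate reserve. Endo-beta-mannanases are secreted enzymes that cut inside these chains. They are best known from seed germination, where they soften or use up the endosperm wall, and they also take part in fruit softening in tomato and in the opening of the silique in Arabidopsis. Shorter pieces are trimmed further by beta-mannosidases and alpha-galactosidases, whereas the chains are built from GDP-mannose by synthases of the cellulose synthase-like A family, with galactose added by galactosyltransferases.

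The 5 sequences fell into 2 groups by the name and species of the protein they matched. JK195448 (631 bases) and Unigene50234 (275 bases) each matched an endo-1,4-beta-mannanase of soybean (Glycine max), with E-values of 4.7e-88 and 6.68e-38. Unigene90 (2052 bases), Unigene68010 (655 bases) and JK148672 (523 bases) each matched an endo-beta-mannanase of apple (Malus x domestica). Their E-values were 0, 1.06e-53 and 6.97e-24. All 5 best matches were plant proteins, so none of the annotations pointed to a soil microbe. Whether the matched protein was the same within a group was not compared. Sequences that share the name and species of the best match may be pieces of 1 gene, copies from the peanut subgenomes or different genes. These cannot be told apart from the files. The identifiers of the members did not occur in the RefSeq gene list for peanut, so no chromosome position is given. They are unigene and public sequence identifiers, so their absence does not show whether the genes are in that list. The division into soybean-match and apple-match sequences was made after the values had been seen.

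The soybean-match sequences had few or no reads in aerial gynophores and many in those with young pods. JK195448 was counted 4, 91 and 3453 times at S1, S2 and S3. Its RPKM came to 0.917 (0.250 to 2.35) for S1, 21.6 (17.4 to 26.5) for S2 and 765 (740.1 to 791) for S3. The 3 intervals do not overlap, and each later stage was higher than the one before it. The S2 level was 23.6 times the S1 level (8.89 to 88.3), the S3 level 35.4 times the S2 level (28.8 to 44.1), and the S3 level 834 times the S1 level (326 to 3064). The width of the last interval comes from the 4 reads in S1. By RPKM, JK195448 ranked 55 of the 77112 sequences with a read in S3, against 14005 of 76970 in S2 and 68598 of 75972 in S1.

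For Unigene50234 there was no read in S1, and there were 20 reads in S2 and 907 reads in S3. In S1 a count of 0 was given a floor of 3 reads, which for this short sequence is an RPKM of 1.58, and the exact Poisson upper limit is 1.94. Its RPKM was 10.9 at S2 (6.66 to 16.8) and 461 at S3 (432 to 492), which ranked 107 of 77112. Set against that floor of 3 reads in S1, the level was at least 6.90-fold higher in S2 and at least 292-fold higher in S3. The exact interval of the ratio, which also takes in the counting error of the later library, begins lower, at 5.11 for S2 to S1 and at 237 for S3 to S1. The S3 level was 42.3 times the S2 level (27.2 to 69.6), an interval that holds the ratio of 35.4 found for JK195448. The reads covered 85.1% of its bases in S2 and 99.3% in S3, and those of JK195448 covered 30.3%, 93.7% and 95.4% in S1, S2 and S3. In S3 the reads thus lay over nearly the whole of both sequences. Per length, JK195448 stood 1.98 times above Unigene50234 in S2 (1.21 to 3.40) and 1.66 times in S3 (1.54 to 1.79). The annotation terms differ as well. JK195448 carries hydrolysis of O-glycosyl compounds, and Unigene50234 carries beta-mannosidase activity together with carbohydrate binding and kinase activity.

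**Figure D1:**
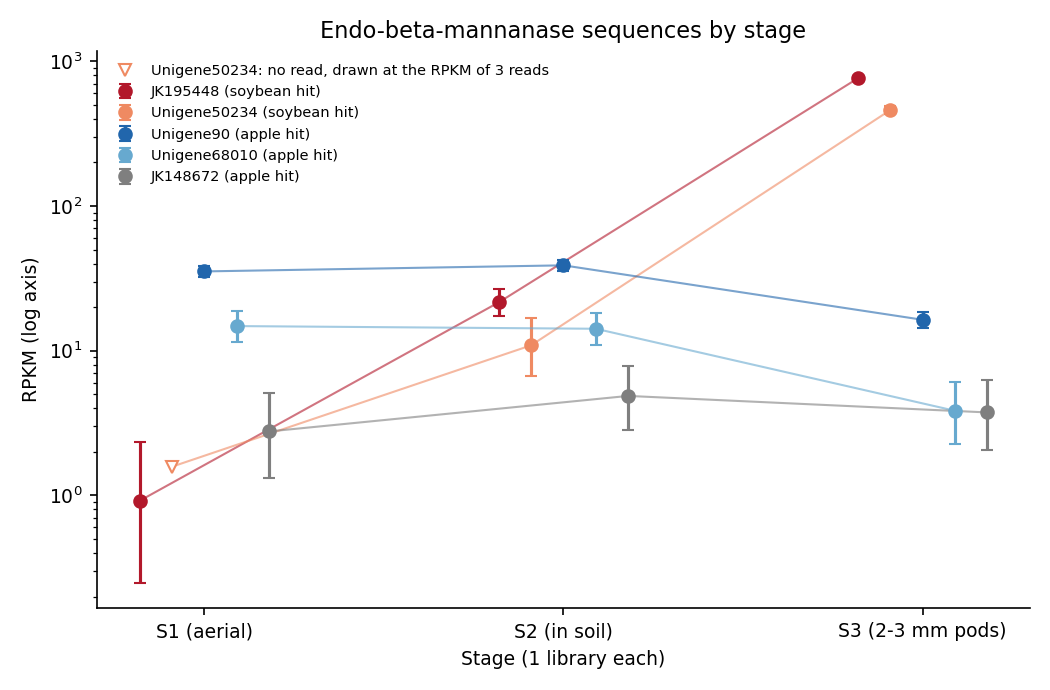
RPKM (log axis) of the 5 endo-beta-mannanase sequences in S1, S2 and S3, 1 library each; points are deposited levels, bars are 95% Poisson intervals and the open triangle marks a library with no read, drawn at the RPKM of 3 reads. JK195448 and Unigene50234 reach 765 and 461 in S3, while Unigene90 and Unigene68010 have their lowest points there.

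Of the apple-match sequences, Unigene90 and Unigene68010 were lower in S3 than in S2, and JK148672 showed no detectable difference. Unigene90, the longest of the family, was counted 501, 533 and 240 times at S1, S2 and S3. This gave an RPKM of 35.3 for S1 (32.3 to 38.6), 38.9 for S2 (35.7 to 42.4) and 16.4 for S3 (14.4 to 18.6). The S3 interval lies below the other two, whereas those of S1 and S2 overlap. The S3 to S2 ratio was 0.420 (0.359 to 0.490) and the S3 to S1 ratio was 0.463 (0.395 to 0.541). The S2 to S1 ratio of 1.10 (0.973 to 1.25) includes 1, so a difference at soil entry was not detectable at this depth. Unigene90 was the most abundant member per length in S1 and S2 and stood below both soybean-match sequences in S3.

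Unigene68010 followed a similar course at a lower level, with 67 reads at S1, 62 at S2 and 18 at S3. In RPKM this was 14.8 (11.5 to 18.8), 14.2 (10.9 to 18.2) and 3.84 (2.28 to 6.07) in the same order. As with Unigene90, only the S3 interval stands clear of the others. The S3 level was 0.271 times the S2 level (0.151 to 0.464) and 0.260 times the S1 level (0.145 to 0.442), and the S2 to S1 ratio of 0.958 (0.667 to 1.37) again includes 1. Unigene90 exceeded it 2.39-fold at S1 (1.85 to 3.13), 2.74-fold at S2 (2.11 to 3.63) and 4.26-fold at S3 (2.64 to 7.30), with overlapping intervals. The share of its bases covered was 88.4%, 85.2% and 61.1% by stage, and Unigene90 stayed above 90% in every library (94.5%, 94.8% and 90.7%).

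JK148672 was the weakest member over the 3 libraries together, with 10 reads at S1, 17 at S2 and 14 at S3. Its RPKM of 2.77 (1.33 to 5.09), 4.87 (2.84 to 7.80) and 3.74 (2.05 to 6.28) overlapped at every pair of stages. S2 stood to S1 as 1.76 (0.761 to 4.30), S3 to S2 as 0.769 (0.351 to 1.66) and S3 to S1 as 1.35 (0.559 to 3.41), so no difference could be seen at this depth. Its reads covered 36.7%, 31.0% and 21.4% of the bases. The 14 reads of S3 thus lay on a smaller share of this sequence than the 4 reads of JK195448 in S1 (30.3%) did on theirs. Reads with more than 1 place of alignment were left out by the authors, so reads shared between near-identical copies are missing from the values of all members. In S3 its level and that of Unigene68010 could not be separated (ratio of Unigene68010 to JK148672 of 1.03, 0.482 to 2.23).

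**Figure D2:**
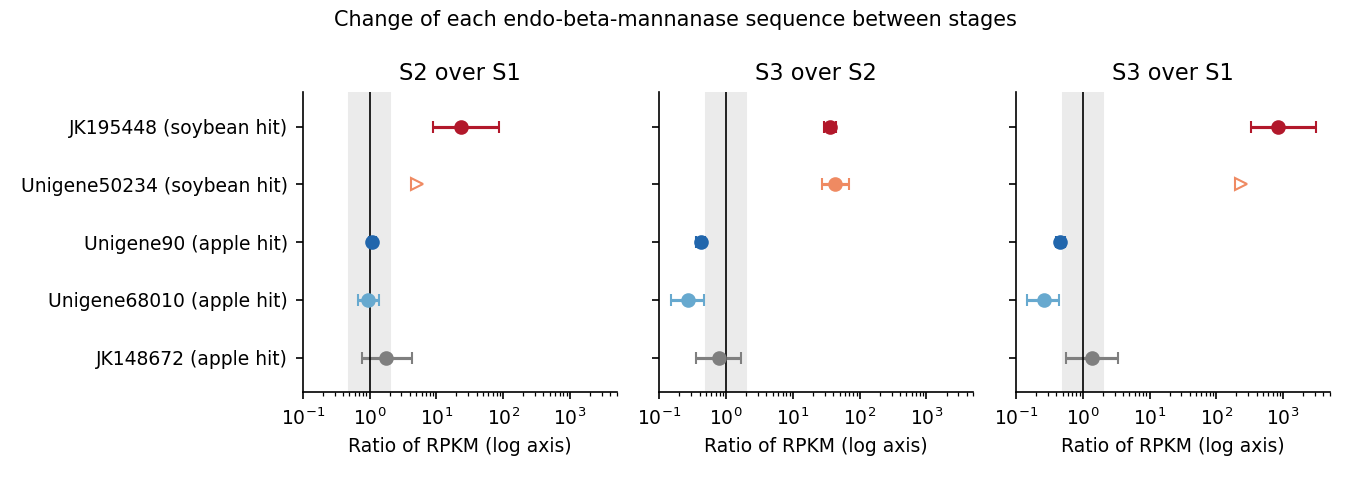
Ratio of RPKM (log axis) for each member in S2 over S1, S3 over S2 and S3 over S1; points are ratios, bars 95% Clopper-Pearson intervals, open triangles the lower end of the interval where S1 has no read, and the grey band runs from 0.5 to 2. The points and triangles of the soybean-match sequences lie right of the band in all 3 panels, and the points of Unigene90 and Unigene68010 lie left of it in S3 over S2 and S3 over S1.

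Counted over RPKM + 1, 2 of the 5 members were at least 2 times higher in S2 than in S1, beside 9.03% of the 81517 sequences that had any read, and 0 were at least 2 times lower, beside 9.19%. In S3 against S2, 2 members were higher, beside 18.6% of all sequences, and 2 were lower, beside 11.4%. In S3 against S1, 2 were higher, beside 21% of all sequences, and 2 were lower, beside 13.9%. The higher ones were JK195448 and Unigene50234 each time, the lower ones Unigene90 and Unigene68010. The 3 comparisons share libraries and are not independent of each other. The median log2 ratio over the 5 members was 0.64 (S2 to S1), -0.31 (S3 to S2) and 0.33 (S3 to S1), beside 0, 0.18 and 0.16 over all sequences. A median of 5 that move apart describes none of them, since the log2 ratios for S3 to S1 ran from -1.71 to 8.85.

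Among all 81517 sequences, Unigene50234 and JK195448 had the highest and second highest log2 ratio of S3 to S1, 8.85 and 8.64. With a pseudocount of 0.1 in place of 1, which gives more weight to sequences with few reads, they ranked 1 and 5. For S3 to S2 they ranked 6 (5.28) and 13 (5.08), and for S2 to S1 155 (3.57) and 159 (3.56). With the pseudocount of 0.1 Unigene50234 and JK195448 ranked 327 and 440 for S3 to S2, and 56 and 872 for S2 to S1, so the ranks for S3 to S2 and S2 to S1 depend on how low counts are weighted. The ranks come from the same values that the family was chosen on and describe these libraries.

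**Figure D3:**
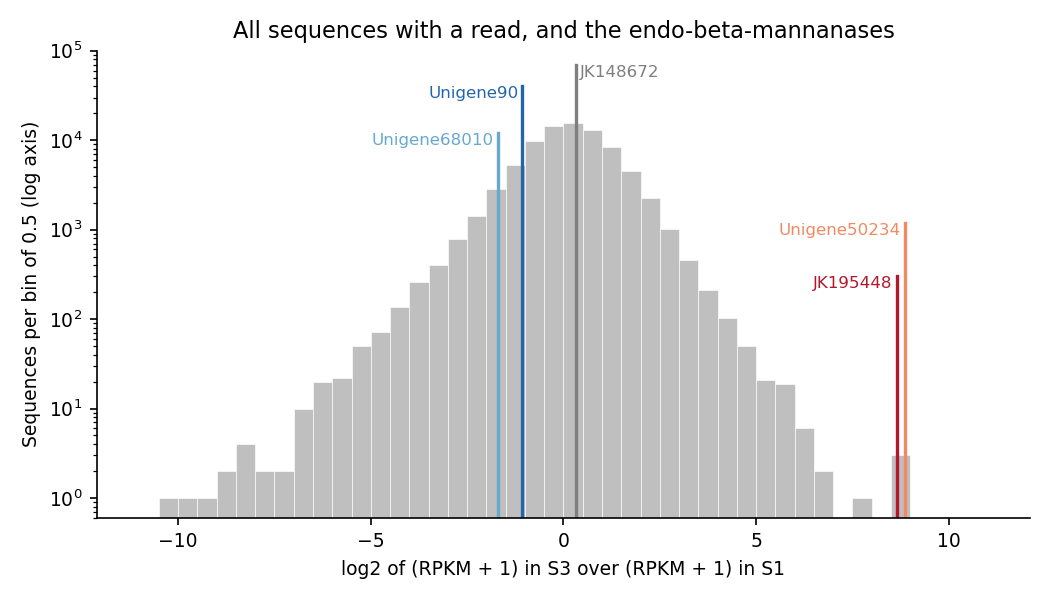
Number of sequences (log axis) per bin of the log2 ratio of RPKM + 1 in S3 to S1, for the 81517 sequences with a read; coloured lines mark the 5 members. JK195448 and Unigene50234 stand at 8.64 and 8.85, at the far right end, and Unigene90 and Unigene68010 at -1.07 and -1.71, on the left flank.

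Summed over the family, the reads came to 84.2 per 1000000 counted reads for S1 (77.5 to 91.3), 108 for S2 (100.6 to 117) and 648 for S3 (629 to 667). The total was 1.29 times as high in S2 as in S1 (1.15 to 1.44), 5.98 times as high in S3 as in S2 (5.53 to 6.48) and 7.69 times as high in S3 as in S1 (7.06 to 8.40). These sums count reads and are not corrected for length. They rest on 1 sequence to a large extent, since without JK195448 the S3 to S2 ratio was 1.74 (1.58 to 1.92) and the S3 to S1 ratio 1.97 (1.78 to 2.18). The makeup of the total differed between stages. The soybean-match sequences held 0.687% of the family's reads at S1 (exact binomial interval 0.188 to 1.75%), 15.4% at S2 (12.8 to 18.2%) and 94.1% at S3 (93.4 to 94.8%). The apple-match sequences summed to 83.6 reads per 1000000 at S1, 91.7 at S2 and 38.0 at S3. Their S3 to S2 ratio of 0.415 (0.358 to 0.479) was opposite in direction to that of the family, and the soybean-match sequences together stood 36.7 times as high in S3 as in S2 (30.4 to 44.7).

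**Figure D4:**
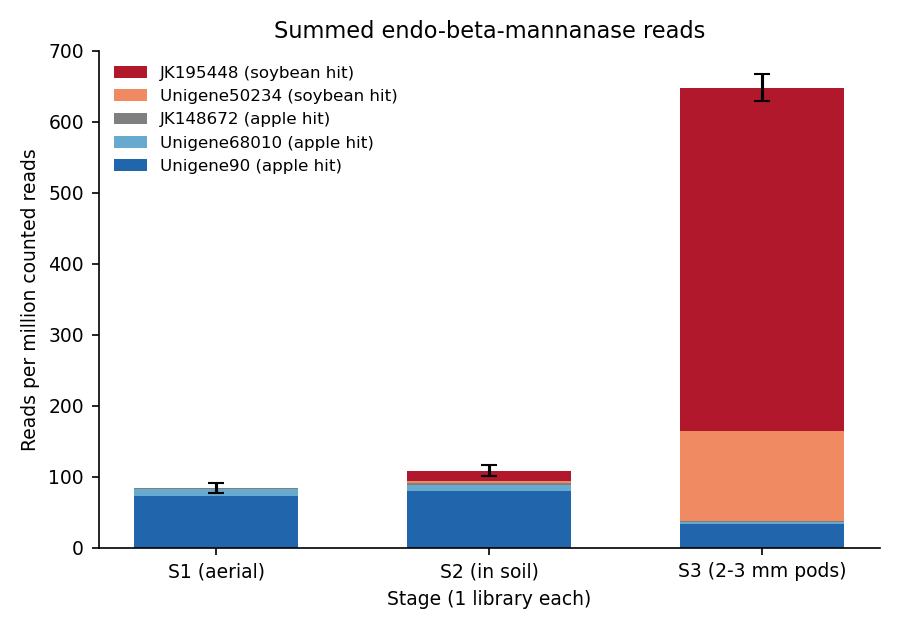
Reads per 1000000 counted reads of the 5 members stacked by stage (bars start at 0; error bars are the 95% Poisson interval of the total). The total is 84.2, 108 and 648 by stage, and JK195448 alone supplies 483 of the S3 total.

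Unigenes and public sequences were also summed apart. The 3 unigenes held 568, 615 and 1165 reads by stage, and the 2 public sequences held 14, 108 and 3467. The public sequences thus carried 2.41%, 14.9% and 74.8% of the family's reads by stage. From unigenes alone the family was 1.98 times as high in S3 as in S1 (1.79 to 2.20), and from public sequences alone it was 239 times as high (142 to 438). JK195448 accounts for 3548 of the 3589 public reads. Among unigenes only Unigene50234, with 275 bases the shortest member, was higher in S3 than in S2.

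A sequence just outside the rule has a name that, by its endo prefix, also describes an enzyme cutting inside mannan chains. GW992700 (559 bases), matched to an endo-1,4-beta-mannosidase of peach (Prunus persica), was counted 37, 32 and 32 times. Its RPKM was 9.58 at S1 (6.74 to 13.2), 8.58 at S2 (5.87 to 12.1) and 8.01 at S3 (5.48 to 11.3). Its S3 to S1 ratio was 0.836 (0.504 to 1.38), so no difference was detectable.

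The sequences named for mannan synthesis summed to 80.9, 31.0 and 27.6 reads per 1000000 counted reads by stage, so the sum was highest in aerial gynophores. The names come from the best matches of sequences of 308 to 693 bases, and a role in mannan synthesis was not tested. Of the 5 sequences so named, 4 were at least 2 times lower in S3 than in S1 (13.9% of all sequences) and 0 higher (21% of all sequences). The summed reads of the 5 in S3 were 0.341 times the S1 level (0.288 to 0.401). Their median log2 ratio of S3 to S1 was -1.30, beside 0.16 over all sequences. The cellulose synthase-like A1 sequence (Unigene55900), the only one named for the backbone synthase, was singled out after its values were seen. It had 122 reads at S1, 16 at S2 and 4 at S3. Its RPKM was 54.0, 7.33 and 1.71 by stage. Its S3 to S1 ratio was 0.0317 (0.00850 to 0.0832). The other 4 each had a best match named galactomannan galactosyltransferase, of Senna occidentalis. Those with the most reads were EZ750141, at 31.3, 16.2 and 13.3 RPKM by stage, and Unigene65993, at 39.9, 15.6 and 15.6 RPKM. Their S2 to S1 ratios were 0.518 (0.387 to 0.688) and 0.391 (0.283 to 0.533), while their S3 to S2 ratios of 0.821 (0.581 to 1.16) and 0.999 (0.685 to 1.46) include 1.

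Trimming enzymes were mixed. The list for side chain and oligomer breakdown held 6 sequences, of which 5 had a read. GW992700 is one of these only because its name contains beta-mannosidase. With endo in that name, it reads as an enzyme cutting inside chains, as mannanases do, and not as a trimming enzyme. In S3 against S1, 1 of the 5 was at least 2 times higher and 2 were lower, beside 21% and 13.9% of all sequences. The median log2 ratio was -0.23 beside 0.16. That median is the value of GW992700 itself, and the other sequences with a read lay at -2.74, -2.48, 0.87 and 1.34. The summed reads ran opposite to the median, with an S3 to S1 ratio of 1.25 (1.16 to 1.34), which without the most read sequence, EZ728013, was 0.746 (0.665 to 0.837). Alpha-galactosidases remove galactose from galactomannan and also act on sugars of the raffinose family. EZ728013, an alpha-galactosidase, stood at 54.5, 62.6 and 100.5 RPKM by stage, with an S3 to S2 ratio of 1.61 (1.46 to 1.77). Unigene68837, also named alpha-galactosidase, had 31.8, 36.4 and 82.0 RPKM, with an S3 to S2 ratio of 2.25 (1.88 to 2.70).

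For the supply of GDP-mannose, 19 of the 20 sequences had a read. In S3 against S1, 0 were at least 2 times higher and 7 were lower, beside 21% and 13.9% of all sequences. The median log2 ratio was -0.71 beside 0.16, and the summed reads had an S3 to S1 ratio of 0.620 (0.574 to 0.668). This list takes in GDP-mannose transporters and sequences named for both phosphoglucomutase and phosphomannomutase. Unigene12996, annotated in the table as a putative mannose-1-phosphate guanyltransferase, stood at 45.9, 50.0 and 14.8 RPKM by stage. The study itself names this sequence an ADP-glucose pyrophosphorylase, an enzyme of starch synthesis, so its place in the list is uncertain. Without Unigene12996 the list had an S3 to S1 ratio of 0.781 (0.715 to 0.852). The phosphomannose isomerase Unigene12243, at the entry from fructose phosphate, had 46.4, 42.6 and 82.2 RPKM and so ran the other way, with an S3 to S1 ratio of 1.77 (1.43 to 2.21).

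The summed reads of 3 other families that act on the wall were lower in S3 than in S2, opposite in direction to the soybean-match mannanases. The apple-match mannanases went the same way as these families, with a ratio of 0.415 (0.358 to 0.479). Over 25 expansins with a read, 0 were at least 2 times higher and 20 were lower in S3 than in S2, with a median log2 ratio of -1.45. Of the 10 xyloglucan endotransglucosylases, which cut and rejoin xyloglucan, 1 was higher and 4 were lower (median -0.34). Of the 21 sequences named endoglucanase or cellulase, 2 were higher and 7 were lower (median -0.61). Over all sequences 18.6% were higher and 11.4% lower, with a median of 0.18. In S1, S2 and S3 the xyloglucan endotransglucosylase EZ735377 had 1306, 715 and 84.6 RPKM and EZ741165 had 34.2, 0 and 0 RPKM. The endo-1,4-beta-glucanase Unigene72354 had 177, 122 and 40.7 RPKM. The endoglucanase list also holds a glucan endo-1,3-beta-glucosidase (Unigene10511), an enzyme for another polymer, at 88.3, 289.6 and 4.91 RPKM. The expansins EZ747800 and Unigene68976, proteins that loosen walls without cutting them, had 48.3, 74.6 and 32.0 RPKM and 60.4, 85.9 and 15.1 RPKM. Summed reads in S3 were 0.265 (0.246 to 0.287), 0.125 (0.116 to 0.134) and 0.395 (0.377 to 0.413) times those in S2 for expansins, xyloglucan endotransglucosylases and endoglucanases. Single sequences weighed heavily in these sums. Without EZ735377 the xyloglucan endotransglucosylases stood at 0.323 (0.245 to 0.421), and without Unigene10511 the endoglucanases stood at 0.613 (0.584 to 0.644). None of these differences between families was tested.

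**Figure D5:**
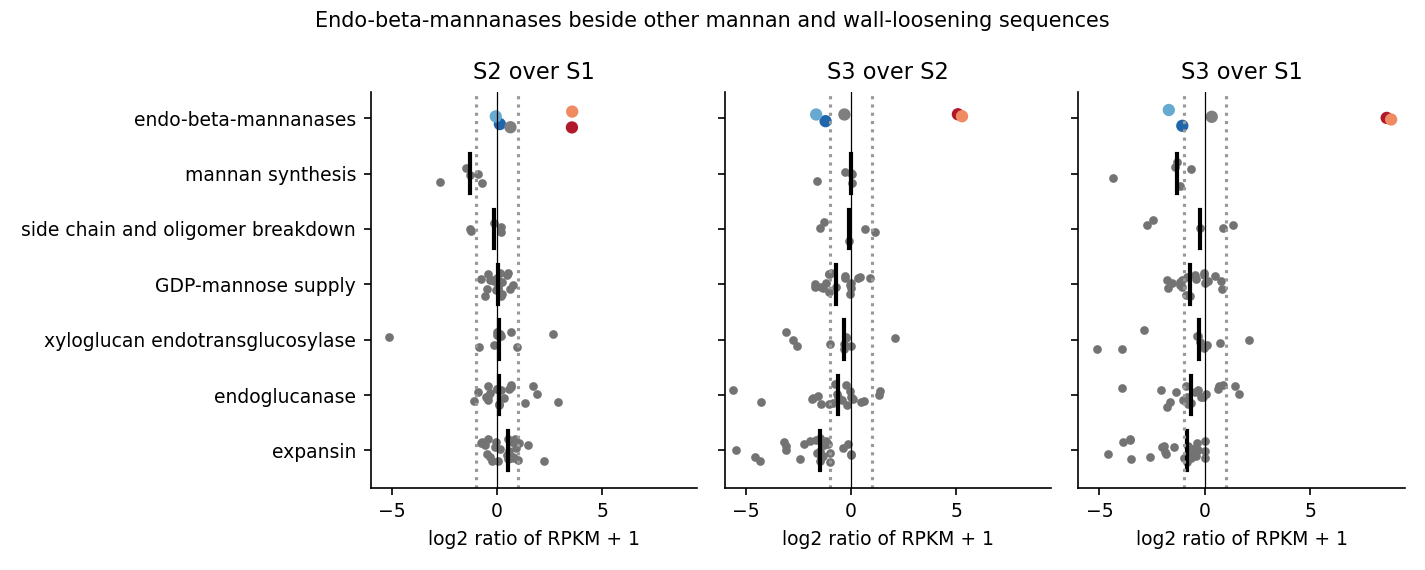
Log2 ratio of RPKM + 1 for each sequence with a read (points, jittered vertically) in the mannanase family and in 6 other lists, for S2 over S1, S3 over S2 and S3 over S1; black bars are medians of the other lists and dotted lines mark 2-fold. The soybean-match mannanases (red and orange) lie right of every point of the other lists in all 3 panels.

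The annotated sequences most like JK195448 in their division over the stages were sought among 31371 with an RPKM of at least 10 in any stage. Likeness was the sum of absolute differences in the 3 stage shares, and JK195448 had 0.116% of its summed RPKM in S1, 2.74% in S2 and 97.1% in S3. The nearest 5 were a gibberellin 20-oxidase (GW971157, distance 0.00501), the MYB factor MYB177 (Unigene47833, 0.00803), a hypothetical protein (Unigene58920, 0.00994), a NAC family factor (Unigene42291, 0.0173) and another hypothetical protein (GW976868, 0.0243). They had between 33 and 167 reads in S3, far fewer than JK195448, and 1 to 3 reads in S2, so their shares are less certain. Unigene50234, the other soybean-match sequence, lay at 0.0110, with 3 of the 31371 nearer. Only 12 of them had as large a share in S3 as JK195448. With 3 libraries such a likeness describes only similar proportions over the stages.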

How the data were processed

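RNA of 3 gynophore stages was sequenced with 1 library per stage. The authors deposited, for each of 83579 reference sequences (51482 unigenes and 32097 public peanut sequences), counts of reads aligned to a single position, RPKM values and the percent of bases covered. Aligner and version are not stated in the paper, labels or readme. A dash in the deposited counts was read as 0, since listed counts start at 1 and add up to the stated library totals. RPKM was used as deposited and came within 0.1% of the value recomputed from reads, length and total for all 5 members.

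Ratios are of reads over counted reads. Calls were set at 2 times in RPKM + 1, and log2 ratios carry the same pseudocount of 1, which understates the change of low sequences. The 2-fold limit and the interval of a ratio were tested on simulated data. Tools were Python 3.11.15, pandas 2.3.3, numpy 2.4.6, matplotlib 3.10.9 and scipy 1.17.1.

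All members are named, and GW992700, whose name lies just outside the rule. Of each mannan or wall list the 2 sequences with the most reads are named, and the 5 nearest to JK195448 by stage shares. The members and lists, matched by words in the annotation, were chosen with earlier results of these data known. By stage, in reads per 1000000, the 47 seed storage sequences summed to 198, 333 and 189, and the 46 histones to 4002, 4521 and 4374. The conglutin EZ724139 held 406, 1232 and 291 of the 1369, 2223 and 1352 seed storage reads. The seed storage median log2 ratio of S2 to S1 was 0, over 35 sequences with a read. In S3 against S2, 4 of 45 histones with a read were at least 2 times higher and 11 lower. Over all sequences the shares were 18.6% and 11.4%. The histone median log2 ratio was -0.34, while the H1 histones EZ726219 and EZ730352 stood 2.22 and 1.84 times as high. Unigene69180, an endo-beta-mannanase by its name in the protein lists, has no row in the table and was not analysed here. Sequence letters of the members were not used here. Alternatives were rescaling by the median of ratios (RPKM of at least 1 in all libraries) or the upper quartile, a pseudocount of 0.1, at least 10 reads, unigenes alone, the family without its most read member and a stricter reading of names. Leaving named sequences out of the other lists was added after seeing the data.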

Additional observations from a re-analysis of the deposited data

How the results depend on the processing

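Of 81 values of the family under alternatives, 61 kept their direction and stayed within the counting interval of the ratio reported, within 1.5 times for a number of members, or, for a median, within the wide counting interval of the member at the median (JK148672). Of the 81, 12 could not differ, since the minimum of 10 reads and the stricter names left out no member (the fewest reads were 41). Rescaling by the median of ratios multiplied ratios of S2 to S1 by 1.04, of S3 to S2 by 0.838 and of S3 to S1 by 0.872, and the upper quartile by 1.05, 0.843 and 0.885. The family total then stood at 5.01 and 5.04 times for S3 to S2 and at 6.71 and 6.81 times for S3 to S1. Neither rescaling changed the number of members past 2-fold in either direction.

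Which sequences are summed mattered more. With unigenes only, the family ratios (S2 to S1, S3 to S2, S3 to S1) were 1.12, 1.77 and 1.98. The number of members at least 2 times higher was then 1 in each comparison, and the median log2 ratio for S3 to S1 turned to -1.07. Without JK195448 the family ratios were 1.13, 1.74 and 1.97. In splits chosen after seeing the data, the soybean-match sequences gave 28.7, 36.7 and 1054, and the apple-match sequences gave 1.10, 0.415 and 0.455, so the family's direction after S2 rests on JK195448 and Unigene50234. Adding GW992700, also chosen after seeing the data, changed no direction (1.26, 5.77 and 7.28). Leaving out named sequences of the other lists, also tried after seeing the data, turned the direction of 2 summed ratios, S3 to S1 for side chain and oligomer breakdown (0.746 without EZ728013) and S2 to S1 for endoglucanases (0.914 without Unigene10511). Depth limits JK148672 in every comparison and the S1 level of JK195448 (4 reads) and Unigene50234 (0 reads), and 1 library per stage limits all of them. No paired analysis was possible because the stages have no replicates.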
